A study of Mus musculus with 6 samples.

Results

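Syntrophins are adaptor proteins that sit on the cytoplasmic side of the plasma membrane and bind dystrophin, utrophin and dystrobrevin. They carry PDZ and pleckstrin homology domains, through which they hold channels, kinases and nitric oxide synthase at the dystrophin complex. The family includes a pair of beta forms (Sntb1 and Sntb2) and a pair of gamma forms (Sntg1 and Sntg2), of which the gamma forms are known mainly from the nervous system and the beta forms are widely expressed. The 4 genes described here, Sntg1, Sntg2, Sntb1 and Sntb2, were picked by name from the 24421 rows of a table of read counts. Sntg1 was chosen because its counts were about 20-fold higher in aged than in young mice, so its difference between the ages is given as a description with no test.

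The libraries came from endothelial cells (ECs) sorted as CD31+CD45- cells from the livers of wild-type C57BL/6J mice, and the study's methods list female animals. There were 3 young samples, all from 10-week-old mice, and 3 aged samples from mice of 127, 131 and 136 weeks, which are named here by those weeks. No transgene or treatment was involved, and each sample was sequenced as single-end 75-base reads. Because each aged sample has an age of its own, differences among the aged samples cannot be told apart from their difference in weeks.

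Total counts ran from 23001556 to 31651817 per sample, so that 3 counts, the floor used here, corresponded to 0.0948 to 0.130 CPM (each count relative to the total of its library, after adjustment of that total by edgeR's TMM factor). The endothelial marker Pecam1 was at 1444 ± 126 CPM in young and 1459 ± 153 CPM in aged samples (SD, n = 3 each), but the 16 endothelial markers that include it summed to 28800 to 32200 CPM in young and 16400 to 23000 CPM in aged samples. Of the 16, 9 were lower in aged samples without overlap and 4 had a log2 fold change above 0, beside 8.33% and 51.1% of all genes tested. Lars2 and Rn45s, which collect ribosomal RNA reads, took 4.68% to 5.53% of the counts in 4 libraries but only 1.29% in the third young sample and 0.960% at 127 weeks, so differences within these library clusters are given for the tested members. Over the 14612 genes tested, edgeR's quasi-likelihood test called 0% higher and 0% lower at an adjusted p below 0.05 with a log2 fold change beyond 1, while 8.32% were higher and 4.32% lower at an unadjusted p below 0.05. DESeq2 called 395 genes higher and 77 lower at the adjusted threshold, and limma-voom 13 and 2. Groups did not overlap in 9.62% of the tested genes on the higher side and in 8.33% on the lower side.

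Sntg1 encodes gamma-1 syntrophin, which is known to bind diacylglycerol kinase zeta. In the mm9 annotation it lies on the minus strand of chromosome 1 at chr1:8351556-9289959, a span of 938 kb with 10 annotated transcripts and 9126 exonic bases. The young samples held 16, 18 and 13 counts, and the 127-, 131- and 136-week samples held 513, 373 and 178. All 3 aged libraries were far above all 3 young libraries, and the lowest aged sample was 8.9 times the highest young sample in CPM. In CPM the young samples were at 0.596, 0.812 and 0.410 and the aged samples at 17.6, 14.5 and 7.23, with means of 0.606 ± 0.201 and 13.1 ± 5.34 (SD, n = 3 each). The ratio of the mean CPMs was 21.7, and edgeR's fit gave a log2 fold change of 4.44 (standard error 0.46).

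The spread of Sntg1 among aged mice was wider than counting error. The exact Poisson 95% intervals of the aged counts were 470.0 to 559, 336 to 413 and 153 to 206, in the order of age, and did not touch. Those of the young counts, 9.15 to 26.0, 10.7 to 28.4 and 6.92 to 22.2, overlapped each other and lay above the floor of 3 counts. Such intervals cover counting error only, because these reads carried no molecular identifiers and copies of 1 molecule may be counted more than once. They are of raw counts, with no adjustment for library size. Spread beyond counting error was not particular to Sntg1, as pairs of aged samples had a chi-square per degree of freedom of 158 to 186 across genes. The CV was 40.7% over the aged and 33.2% over the young CPM values. Within the library cluster with few ribosomal RNA reads, which holds 1 sample of each age, the difference in Sntg1 was 4.32 on the log2(CPM + 0.5) scale. Within the other cluster it was 3.17. The 0.5 added is close to the young CPM values of 0.410 to 0.812, which makes these differences smaller. The edgeR fit with a library cluster term gave a log2 fold change of 4.42 (standard error 0.48). Among the tested genes, 86 (0.589%), Sntg1 included, had a log2 fold change at least as high as its own, and 6 of them (0.0411%) also had at least its mean level.

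The deposited FPKM values, which are per length, gave the same picture of Sntg1. They were 0.0819, 0.106 and 0.0532 in the young samples and 2.31, 1.96 and 0.958 in the 127-, 131- and 136-week samples, a ratio of means of 21.7. CPM divided by FPKM gives the length in kilobases that the tables assign to a gene, and for Sntg1 this was 7.27 to 7.70 kb in all 6 samples with no separation by age. The tables thus do not differ in the transcript length that they used for the 2 ages. They hold 1 value per gene and do not show which of the annotated start sites was read.

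Reads of Sntg1 were not shared with its relatives. Of the 7766 distinct 75-base stretches in its annotated coding transcripts, 0 also occurred in a coding transcript of another gene, and the same count was 0 for Sntg2, Sntb1 and Sntb2. Within its span the annotation places 4 pseudogenes and 2 miRNA genes, and 0 of them have a row in the count table. Whether reads were counted by strand is not given in the sources used here, so reads from the opposite strand of this span cannot be told apart from those of Sntg1.

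The tested genes beside Sntg1 had log2 fold changes from -0.70 to 0.69. Pcmtd1, the nearest counted gene at lower coordinates (1190 kb away), ran from 107 to 135 CPM in young and from 117 to 124 CPM in aged samples, with a log2 fold change of 0.02 (standard error 0.14, edgeR adjusted p = 0.971). St18 and Fam150a, further on that side, held 0 counts in every young sample and at most 2 counts in any aged one. On the other side, 246 kb away, Rrs1, a ribosome assembly factor, ran from 21.2 to 25.3 CPM in young and from 33.8 to 39.0 CPM in aged samples without overlap, a log2 fold change of 0.67 (standard error 0.15, edgeR adjusted p = 0.233). Adhfe1 and 2610203C22Rik follow and overlap each other on opposite strands, so their split of reads is uncertain. They had log2 fold changes of 0.69 and -0.70 (edgeR adjusted p = 0.586 and 0.622).

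**Figure D1:**
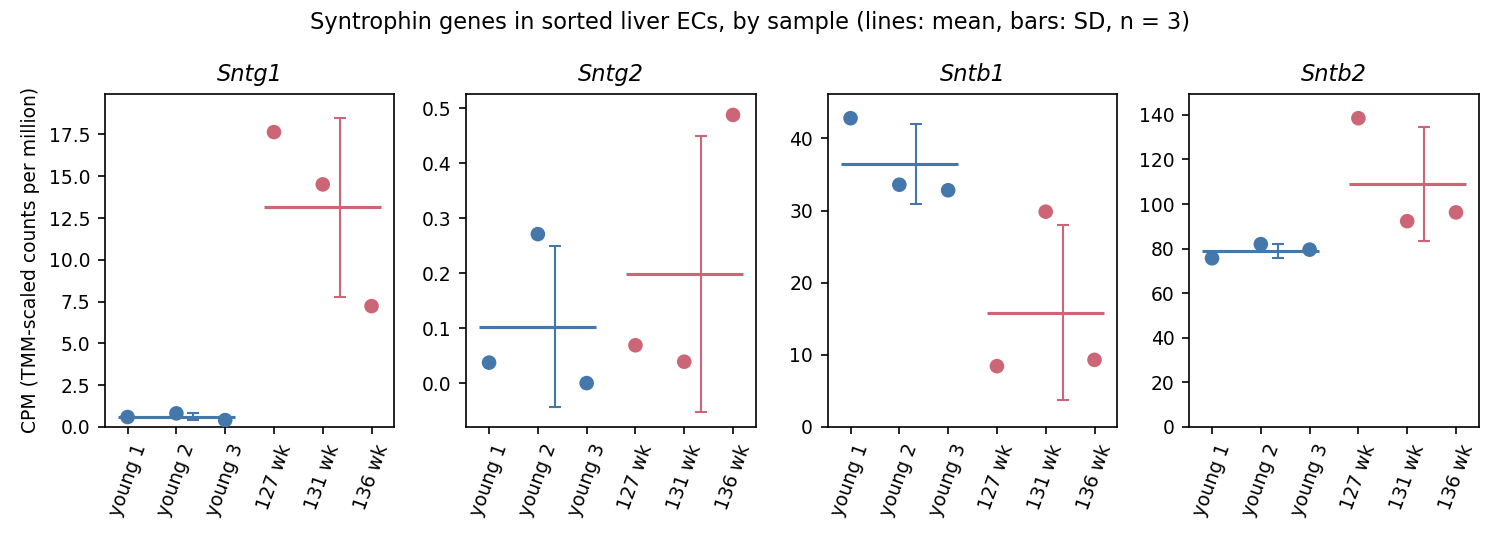
CPM (TMM-scaled, linear axes) of the 4 syntrophin genes in each of the 3 young (blue) and 3 aged (red) liver EC samples, with horizontal lines at the group means and bars of 1 SD. Sntg1 is near 0 in all young samples and at 7.23 to 17.6 in the aged samples, Sntb1 is low in the 127- and 136-week samples, and the ages overlap for Sntg2.

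Sntg2, the gene of gamma-2 syntrophin (chr12:30859347-31058240, minus strand), was barely read at either age. It held 1, 6 and 0 counts in the young samples and 2, 1 and 12 counts in the 127-, 131- and 136-week samples. The ages overlapped, and 4 of the 6 libraries were below the floor of 3 counts. Its highest CPM was 0.487, in the 136-week sample, and it did not reach the minimum of 0.5 CPM for a test. Without that minimum its log2 fold change was 0.96 (standard error 1.51, edgeR adjusted p = 0.853). The gamma form that was higher in aged ECs was Sntg1, and a difference in Sntg2 was not detectable at this depth.

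Sntb1 encodes beta-1 syntrophin (chr15:55470398-55738504, minus strand). Its CPM was 42.8, 33.6 and 32.8 in the young samples and 8.43, 29.8 and 9.30 in the 127-, 131- and 136-week samples. In CPM the aged values were all below the young ones, but the 131-week sample lay close under them, at 29.8 against 32.8. The means were 36.4 ± 5.56 and 15.85 ± 12.1 CPM (SD, n = 3 each), and the log2 fold change of -1.20 (standard error 0.48) did not pass the threshold (edgeR adjusted p = 0.374). When the 131-week sample was left out, the log2 fold change was -2.04 (edgeR adjusted p = 0.0565). Without the 127-week sample it was -0.89 (edgeR adjusted p = 0.524). On the log2(CPM + 0.5) scale the difference in Sntb1 was -1.90 within the library cluster with few ribosomal RNA reads, which holds 1 sample of each age, and -1.16 within the other cluster.

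Sntb2 encodes beta-2 syntrophin, a widely expressed form (chr8:109459650-109538092, plus strand). Its CPM was 75.7, 82.0 and 79.5 in the young samples and 138.5, 92.3 and 96.25 in the 127-, 131- and 136-week samples. The young samples were tightly grouped, with a CV of 4.04%, and each aged sample was above them, the 127-week sample most. The means were 79.1 ± 3.19 and 109 ± 25.6 CPM (SD, n = 3 each), with a log2 fold change of 0.46 (standard error 0.18, edgeR adjusted p = 0.370). Within the library cluster with few ribosomal RNA reads, which holds young replicate 3 and the 127-week sample, the difference was 0.80 on the log2(CPM + 0.5) scale, and within the other cluster it was 0.26.

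Compared per length, the beta forms had the highest levels of the 4 genes at both ages. In young samples the FPKM was 18.1 ± 0.76 for Sntb2, 16.7 ± 2.62 for Sntb1, 0.0802 ± 0.0262 for Sntg1 and 0.0465 ± 0.0664 for Sntg2 (SD, n = 3 each). The ranges of Sntb2 and Sntb1 overlapped in the young samples, as did those of Sntg1 and Sntg2, while both beta forms stood above both gamma forms in every sample. In aged samples the order was Sntb2 at 24.8 ± 5.97, Sntb1 at 7.30 ± 5.67, Sntg1 at 1.74 ± 0.703 and Sntg2 at 0.0896 ± 0.113 FPKM (SD, n = 3 each). Here the ranges of neighbours in the order did not overlap.

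Of the summed FPKM of the 4 genes, Sntg1 took 0.221%, 0.308% and 0.159% in the young samples and 6.11%, 5.33% and 3.54% in the 127-, 131- and 136-week samples. At both ages it was a minor part of this sum. Sntb1 took 44.8% to 53.2% in the young samples and 10.2%, 37.7% and 15.5% in the aged ones, while Sntb2 took 46.5% to 54.9% and 83.6%, 57% and 80.2%. The ratio of Sntb1 to Sntb2 FPKM was 1.15, 0.822 and 0.819 in young and 0.122, 0.661 and 0.193 in aged samples. The ages did not overlap in it, which gave p = 0.1 (two-sided exact permutation test), the smallest that 3 against 3 samples allow. The sum of Sntb1 and Sntb2 was 34.9 ± 1.88 FPKM in young and 32.1 ± 5.36 in aged samples (SD, n = 3 each, two-sided exact permutation test, p = 0.6).

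**Figure D2:**
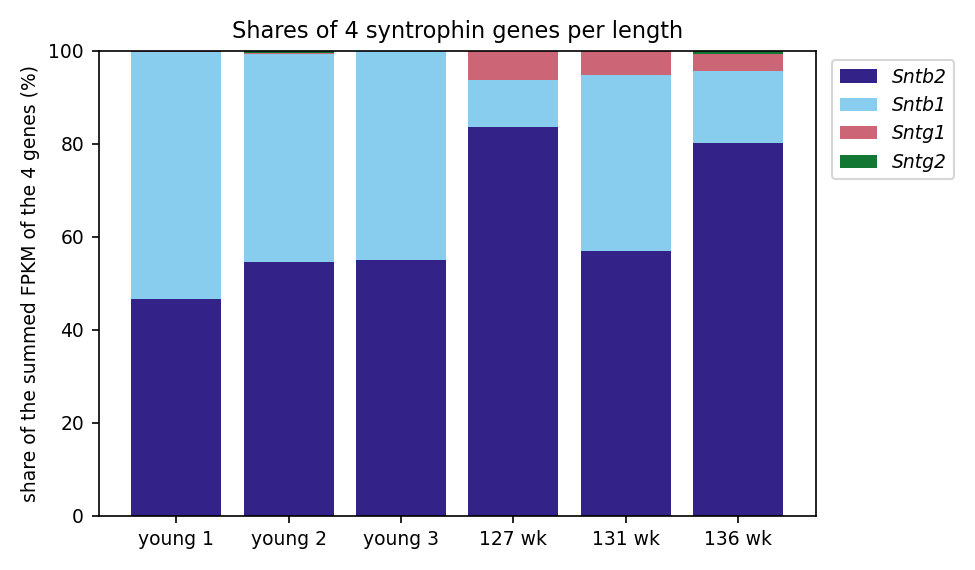
Stacked bars of each syntrophin gene's share (%) of the summed FPKM of Sntg1, Sntg2, Sntb1 and Sntb2 in every sample. Sntb2 and Sntb1 take similar parts of the young samples, Sntb2 takes 83.6% and 80.2% of the 127- and 136-week samples, and Sntg1 is visible in the aged samples, at 3.54% to 6.11%.

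The proteins that syntrophins attach to were looked at next, as a list of 12 genes of the dystrophin complex. Of these, 9 passed the minimum level, while Drp2, Sgca and Sgcz were at or below 0.361 CPM in every sample. In edgeR's test 0 of the 9 passed the threshold in either direction, as 0% of all genes tested did. At an unadjusted p below 0.05, 2 were lower in aged samples and 0 higher, beside 4.32% and 8.32% of all genes tested. The median log2 fold change was -0.12, against 0.0098 over all genes tested. Of the 9, 4 had a log2 fold change above 0, as did 51.1% of all genes tested. The ages did not overlap in 3 of the 9 genes, all lower in aged samples, where 8.33% of all tested genes were of that kind.

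Dystrophin itself (Dmd), the rod that links actin to the membrane complex, was read at 62.3, 81.2 and 71.6 CPM in young samples and at 45.0, 42.75 and 32.4 CPM in the 127-, 131- and 136-week samples. Every aged sample was lower than every young one, with a log2 fold change of -0.84 (standard error 0.18, edgeR adjusted p = 0.209). DESeq2's adjusted p for Dmd was 0.00458, with a log2 fold change short of the threshold of 1. Sgce, which encodes epsilon-sarcoglycan, was at 125, 128.5 and 101 CPM in young and 70.8, 80.8 and 62.2 CPM in aged samples. It did not overlap between the ages either, with a log2 fold change of -0.73 (standard error 0.16, edgeR adjusted p = 0.233, DESeq2 adjusted p = 0.00808).

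Utrophin (Utrn), the widely expressed relative of dystrophin, was read at 128, 117 and 162 CPM in young samples and at 213, 137 and 202.5 CPM in aged samples. The 131-week sample lay within the young range, and the log2 fold change was 0.44 (standard error 0.22, edgeR adjusted p = 0.457). Dag1, whose product dystroglycan is the laminin receptor of the complex, was at 339 ± 76.2 CPM in young and 287 ± 37.2 CPM in aged samples (SD, n = 3 each, log2 fold change -0.24, edgeR adjusted p = 0.709). Of the remaining genes, the sarcoglycan gene Sgcb, the dystrobrevin gene Dtnb and Sspn, which encodes sarcospan, had log2 fold changes of 0.061, 0.011 and -0.12. Dtna and Sgcd were near the floor for a test, at no more than 0.819 and 3.45 CPM in any sample, where log2 fold changes were -0.79 with a standard error of 0.65 and 0.54 with one of 0.86.

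**Figure D3:**
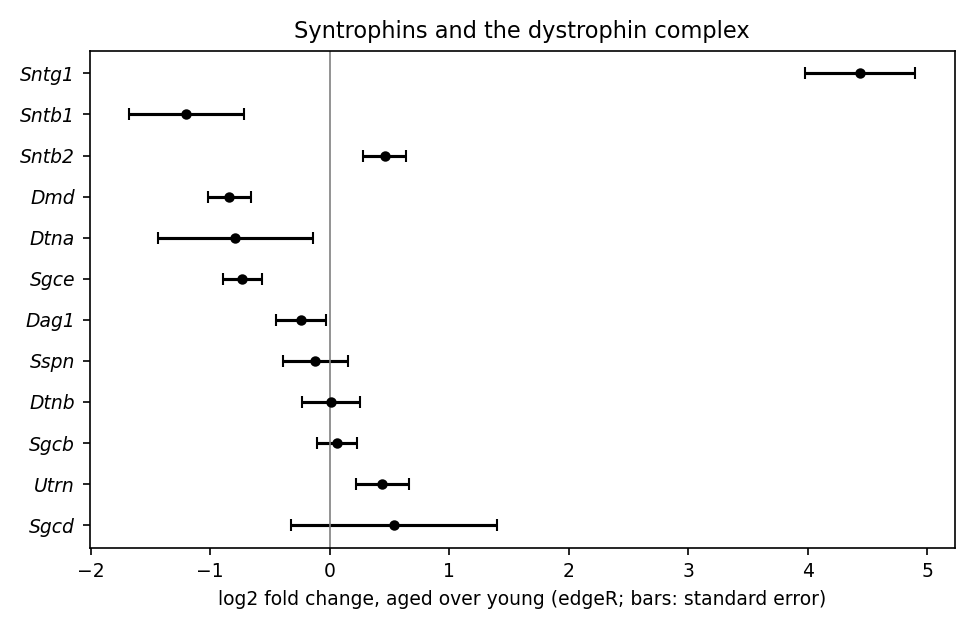
Log2 fold change of aged over young liver ECs from edgeR for 3 syntrophin members and the 9 tested genes of the dystrophin complex, with bars of 1 standard error. Sntg1 stands at 4.44 while the other genes lie between -1.20 and 0.54.

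Enzymes that build the laminin-binding sugar of dystroglycan formed a second list, of 18 genes, all of which were tested. Of them 13 had a log2 fold change below 0 and 5 above 0, where 51.1% of all genes tested were above 0. The median was -0.16, against 0.0098 over all genes tested. In edgeR's test 0 passed the threshold, beside 0% of all genes tested. An unadjusted p below 0.05 was found for 3, all lower, beside 4.32% of all genes tested. The ages did not overlap in 6 of the 18, all lower, beside 8.33% of all genes tested. The smallest p belonged to Pomt2, a protein O-mannosyltransferase, with 46.6, 46.5 and 46.2 CPM in young and 34.1, 34.7 and 28.4 CPM in aged samples (log2 fold change -0.52, standard error 0.14, edgeR adjusted p = 0.254, DESeq2 adjusted p = 0.0328). Dolk, a dolichol kinase, and Pomgnt1, which extends the O-mannose, followed with log2 fold changes of -0.54 and -0.44 (edgeR adjusted p = 0.363 and 0.371). On the higher side the smallest p values were those of Pomk, Gyltl1b and B3galnt2, with log2 fold changes of 0.17, 1.15 and 0.15 (edgeR adjusted p = 0.764, 0.767 and 0.826).

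Known binding partners of syntrophins made up another list, of 20 genes, and 14 of them reached the minimum level. Aqp4, Scn4a, Kcnj12, Ptprn, Adra1d and Trpc4 did not, with at most 0.325 CPM in any sample. In edgeR's test 0 passed the threshold, beside 0% of all genes tested. At an unadjusted p below 0.05, 1 was higher and 0 lower, beside 8.32% and 4.32% of all genes tested. The median log2 fold change was -0.03, against 0.0098 over all genes tested. The gene that was higher was Trpc1, a cation channel subunit, with 0.409, 0.226 and 0.852 CPM in young and 2.68, 1.71 and 3.13 CPM in aged samples. Its ages did not overlap, and its log2 fold change was 2.31 (standard error 0.60, edgeR adjusted p = 0.250, DESeq2 adjusted p = 0.0129, which passed the threshold there). Dgkz, which encodes the kinase bound by gamma-1 syntrophin, was read at 200 to 209 CPM in young samples. Its aged samples were at 148, 195 and 141 CPM, with no overlap between the ages. The log2 fold change of Dgkz was -0.35 (standard error 0.16, edgeR adjusted p = 0.438). Of the 14 genes, 1 was higher and 1 lower without overlap, beside 9.62% and 8.33% of all genes tested. Atp2b4, a plasma membrane calcium pump, and Arhgef5 had log2 fold changes of -0.46 and -0.34 (edgeR adjusted p = 0.436 and 0.628). Nos1, the neuronal nitric oxide synthase, and Grb2, an adaptor of receptor tyrosine kinases, overlapped between the ages, with log2 fold changes of 1.34 and 0.15 (edgeR adjusted p = 0.582 and 0.801).

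Matrix proteins that bind dystroglycan made up the last list, of 12 genes, with a median log2 fold change of -0.26, against 0.0098 over all genes tested. In edgeR's test 0 passed the threshold, beside 0% of all genes tested. At an unadjusted p below 0.05, 1, Hspg2, was lower, without overlap. Of all genes tested, 4.32% were lower at that p and 8.33% were lower without overlap. Hspg2, which encodes the basement membrane proteoglycan perlecan, was at 897, 918 and 794 CPM in young and 525, 715 and 534 CPM in aged samples (log2 fold change -0.56, standard error 0.18, edgeR adjusted p = 0.319). Slit2, Lamb2, Egflam, Lamb1 and Lamc1, the others with the smallest p in their direction, had log2 fold changes of -0.63, -0.29, 0.80, 0.77 and 0.19.

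Levels in sorted cells can move with the make-up of the sort, so markers were read beside the syntrophins. In bulk RNA, fewer cells of a type and less RNA per cell cannot be told apart. A list of 6 sinusoidal endothelial markers (Stab1, Stab2, Lyve1, Clec4g, Oit3 and Gpr182) summed to 13500 to 15200 CPM in young samples and to 5630, 8750 and 5390 CPM in the 127-, 131- and 136-week samples. Of the 6, 5 were lower in aged samples without overlap, beside 8.33% of all genes tested. In both Sntb1 and this sum the 131-week sample was the aged one nearest to the young samples. Its Pearson correlation with Stab2, a scavenger receptor of sinusoidal ECs at 2902, 3199 and 3021 CPM in young and 504, 1760 and 542 CPM in aged samples, was 0.977 on the log2(CPM + 0.5) scale over the 6 samples, which share the 2 ages. The part of these markers in the difference in Sntb1 was not tested.

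On the same scale the correlation of Sntg1 was -0.808 with Stab2 and 0.509 with Ptprc, and that of Sntb1 with Ptprc was -0.904. Of 7 pan-leukocyte markers, all had a log2 fold change above 0, beside 51.1% of all genes tested. Of the 7, 1 was higher in aged samples without overlap, beside 9.62% of all genes tested. The sum of the 7 was 98.8 to 104 CPM in young samples, 111 CPM in the 127-week and 353 CPM in the 136-week sample. In the 131-week sample the sum lay within the young range and Ptprc, which encodes CD45, was at 1.28 CPM against 1.17 to 1.70 in young samples, while Sntg1 was at 14.5 CPM. The 136-week sample had the most leukocyte RNA, with 25.6 CPM of Ptprc, and the least Sntg1 of the aged samples. The part of leukocyte RNA in the level of Sntg1 was not tested.

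Neuronal genes were read because Sntg1 is known from the nervous system. Of 10 neuron markers, 4 passed the minimum level for a test and 5 (Snap25, Elavl4, Nefl, Nefm and Th) were at or below 3 counts in every sample. The sum of the list was 14.6 to 21.2 CPM in young and 21.0, 14.7 and 53.5 CPM in the 127-, 131- and 136-week samples. The 127- and 131-week samples thus lay within the young range. Schwann cell markers summed to at most 2.79 CPM in young and to 3.40, 1.91 and 7.76 CPM in aged samples, and markers of skeletal and cardiac muscle to 2.71 to 7.31 CPM in young and 1.69 to 4.63 CPM in aged samples. Summed hepatocyte markers were at 143 to 266 CPM in young and 86.2 to 109 CPM in aged samples, and stellate and mural cell markers at 133 to 437 and 232 to 707 CPM, where Pdgfrb was at 6.09 to 16.4 and 8.87 to 18.2 CPM. Summed myeloid markers were at 202, 32.3 and 492 CPM in the 127-, 131- and 136-week samples, and summed T and B lymphocyte markers at 18.8, 10.3 and 34.0 CPM, against 47.3 to 92.3 and 8.26 to 10.7 CPM in young samples. The part of these other cells in the levels of the syntrophins was not tested.

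**Figure D4:**
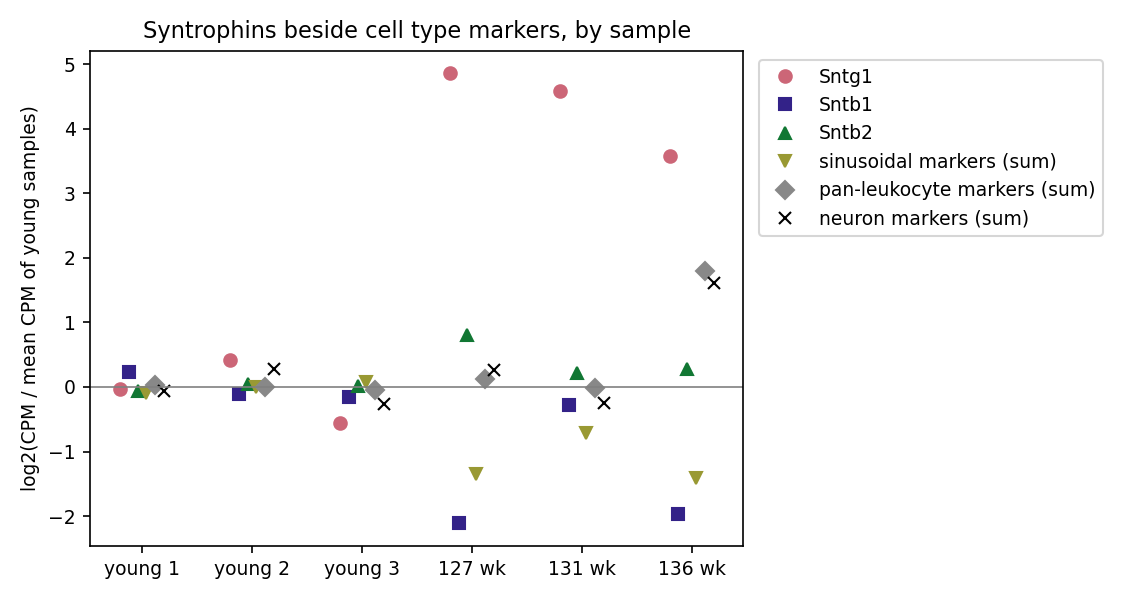
Log2 ratio of each sample's CPM to the mean CPM of the young samples for Sntg1, Sntb1, Sntb2 and the summed sinusoidal, pan-leukocyte and neuron markers. Sntg1 is high in all 3 aged samples, the leukocyte and neuron sums are high in the 136-week sample, and Sntb1 and the sinusoidal sum are lowest in the 127- and 136-week samples.

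The genes whose pattern over the 6 samples was most like that of Sntg1, by Pearson correlation of log2(CPM + 0.5) among the tested genes, were Ly75, Cpeb1, A530032D15Rik, Stambpl1 and Ric3, with r between 0.987 and 0.991. All 6 points share the split by age, so these values describe the pattern and carry no test. Ly75, which encodes the endocytic receptor DEC-205, was at 1.38, 1.94 and 1.29 CPM in young and 6.16, 5.02 and 4.35 CPM in the 127-, 131- and 136-week samples. Cpeb1, which encodes a regulator of mRNA polyadenylation and translation, was at 0.409, 0.316 and 0.473 CPM in young and 7.39, 8.67 and 4.39 CPM in aged samples. All the genes named here had the 136-week sample as their lowest aged one, as Sntg1 had, and they were picked by likeness to it.

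Stambpl1, a deubiquitinase gene, and Ric3, which encodes a chaperone of acetylcholine receptors, followed Sntg1 in pattern but not in size. Stambpl1 was at 5.87 to 6.28 CPM in young and 9.50 to 11.3 CPM in aged samples, and Ric3 at 6.63 to 7.76 and 14.6 to 16.6 CPM. A530032D15Rik was at 0.0744 to 0.271 CPM in young and 1.71 to 2.89 CPM in aged samples. Within the family, Sntg1 had an r of 0.822 with Sntb2 and -0.72 with Sntb1.

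**Figure D5:**
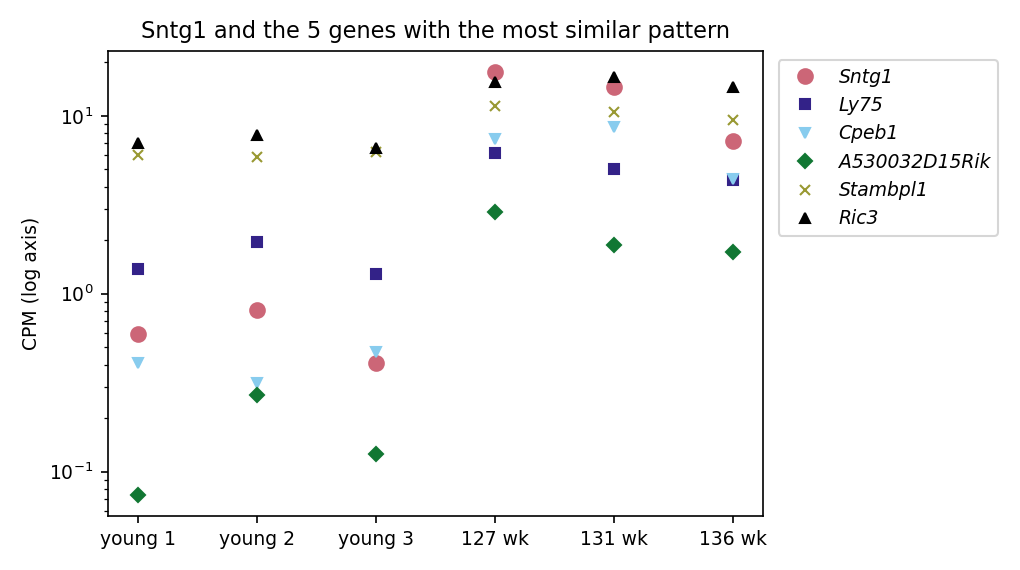
CPM on a log axis in each sample for Sntg1 and the 5 genes with the highest Pearson correlation with it. None of the 6 genes overlaps between the ages, with aged samples above young ones, Sntg1 and Cpeb1 by more than Stambpl1 and Ric3.

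The genes most like Sntb1 were Rin2, Gpihbp1, Kcnq1, Wdr7 and Fbxo6, with r between 0.994 and 0.998. Gpihbp1, which carries lipoprotein lipase to the lumen of capillaries, was at 1550, 1430 and 1400 CPM in young and 848, 1320 and 911 CPM in the 127-, 131- and 136-week samples. Kcnq1, a potassium channel gene, was at 89.0, 78.7 and 81.0 CPM in young and 30.8, 70.3 and 31.0 CPM in aged samples. Rin2, a Rab5 regulator, was at 109 to 122 CPM in young and 58.4, 103 and 59.7 CPM in aged samples. As with Sntb1, the 131-week sample of each was near the young range and the 127- and 136-week samples were well below it, and Wdr7 and Fbxo6 also had their highest aged value at 131 weeks, with log2 fold changes of -0.41 and -0.21.

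The genes most like Sntb2 were Fhdc1, Fam73a, Tmem200a, Caskin1 and Pold2, with r between 0.98 and 0.995. They shared its high 127-week sample. Fhdc1, a formin-related gene, was at 16.0, 18.8 and 19.4 CPM in young and 69.5, 24.7 and 30.9 CPM in the 127-, 131- and 136-week samples. Fam73a was at 8.90 to 9.75 and 10.8 to 16.5 CPM, Caskin1 at 0.409 to 0.505 and 0.650 to 0.997 CPM, and Pold2, a subunit of DNA polymerase delta, at 27.9 to 29.0 and 29.1 to 37.0 CPM. Tmem200a had 0 counts in all young samples and at most 0.550 CPM in an aged one.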

How the data were processed

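Per the study's methods, the authors called bases with CASAVA 1.8.2 and mapped the single-end reads to mm9 with TopHat2 2.1.0. The authors deposited raw counts, 1 row for each gene symbol, and FPKM values from Cuffnorm 2.2.1, which scales them by length and between samples. The counting program, annotation and strand setting are not given in the sources used here. The members and all gene lists were chosen with earlier results of these data known. Some genes of these lists are not reported here, and they were left out of the list counts and medians.

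A gene was tested where 1 or more samples reached 0.5 CPM, taken there on the unadjusted library total (14612 of 24421). Counts were scaled by TMM, and aged samples were set against young ones with edgeR (4.0.16, R 4.3.3), quasi-likelihood test, Benjamini-Hochberg adjustment over all tested genes, calling adjusted p values below 0.05 whose log2 fold change exceeded 1 in size. Standard errors are the log2 fold change divided by the root of the F statistic. The fit was tested on simulated counts. Ratios of family FPKM were compared with exact permutation tests. DESeq2 (1.42.0), limma (3.58.1), other filters, other scalings, log2 FPKM and the removal of each sample were alternatives. No pair of replicates was alike within sampling noise (smallest chi-square per degree of freedom 20.2). Positions are from GENCODE for mm9. Named genes are the 4 members, all genes of the dystrophin complex list, up to 3 genes per direction with the smallest p in each other list, the 5 genes most correlated with each tested member, the neighbours of Sntg1, and defining markers.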

Additional observations from a re-analysis of the deposited data

How the results depend on the processing

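The direction of Sntb1 and Sntb2 was kept in all 16 fits, and so was their side of the threshold. Sntg1 was higher in aged samples in all of these fits too. It was chosen for that rise, so this is a description and no support. The log2 fold change of Sntb1 ran from -2.04 to -0.89 (adjusted p 0.0565 to 0.733) and that of Sntb2 from 0.26 to 0.57 (adjusted p 0.207 to 0.673). That of Sntg1 was 4.17 to 4.74 with each sample left out, 3.28 on log2(FPKM + 0.1) and 1.31 on log2(FPKM + 1), where the pseudocount exceeds the young FPKM values. Within the ribosomal RNA clusters, on log2(CPM + 0.5), the difference in Sntg1 was 3.17 in the high cluster and 4.32 in the low one. There the 0.5 added is close to its young CPM values, and with a library cluster term its log2 fold change was 4.42. Sntb2 was at 0.80 in the low cluster. The counts of genes called higher and lower were 395 and 77 with DESeq2, 13 and 2 with limma-voom, 3 and 1 with no filter and 1 and 1 with a library cluster term. With each sample left out, the fits called 0 to 1 gene higher and 0 to 0 lower, and the fit that called 1 was that without the 131-week sample. The causes were not tested. Sntg2 could be fitted only without the filter. Medians of the 4 gene lists stayed within the spread between samples in 57 of 60 recomputed values. The exceptions were the partner list without the second young sample (-0.194) and the complex list without the 131-week sample (-0.347) and with limma-voom (-0.343). The partner median changed sign among the alternatives, from -0.194 to 0.084. No paired analysis was made, because the labels give no pairing between young and aged mice. With 3 samples per age, exact permutation tests cannot go below p = 0.1.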
